A study of Arabidopsis thaliana with 6 samples.

Results

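Histone genes, which encode the proteins that package nuclear DNA, were examined in whole seedlings of *Arabidopsis thaliana*. The set was given as a list of 40 locus identifiers and all 40 were found among the 33602 loci of the deposited tables: 5 H3.1 genes, 3 H3.3 genes, 8 H4 genes, 13 H2A genes, 8 H2B genes and 3 linker H1 genes. The H2A genes divide into 4 canonical, 2 H2A.X, 3 H2A.W and 4 H2A.Z genes. Seedlings of accession Col and a line labelled bbx4-1, named as a mutant of the B-box zinc finger gene BBX4 in a Col background, grew for 4 days at 22 °C under continuous red light. Of the 6 samples, 3 are wild-type and 3 are bbx4-1, and the authors combined the 3 replicates of each genotype into 1 FPKM value per gene (fragments per kilobase of transcript, scaled to the mapped total). The labels used here name the line and do not describe its lesion.

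Nucleosomes hold DNA around an octamer of the core histones H2A, H2B, H3 and H4, and linker histone H1 binds where the DNA enters and leaves. Replication-dependent histones, among them H3.1, are made in bulk as DNA is copied and are deposited behind the replication fork. Replacement variants such as H3.3 and H2A.Z are made and deposited outside S phase as well, H3.3 mainly over transcribed genes and H2A.Z at the first nucleosomes of genes. In plants H2A.W marks heterochromatin, and H2A.X is phosphorylated at DNA breaks. Unlike their animal counterparts, plant replication-dependent histone messages are polyadenylated, so poly(A)-selected libraries hold them. For the comparison below, the 5 H3.1, 8 H4, 4 canonical H2A and 8 H2B genes, 25 in all, were taken as replication-dependent, and the 3 H3.3 and 4 H2A.Z genes, 7 in all, as replacement. The 5 H2A.X and H2A.W genes and the 3 H1 genes were kept apart.

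Short promoter motifs were shared by some of the genes. The octamer CGCGGATC, known from plant histone promoters, lay on either strand within the 300 bases before the annotated start of 10 of the 40 genes (25%), against 41 of 27443 protein-coding nuclear genes (0.149%). It was found before 3 of 5 H3.1, 2 of 8 H4, 2 of 4 canonical H2A, 1 of 3 H2A.W, 1 of 3 H1 and 1 of 3 H3.3 genes, and before no H2B, H2A.X or H2A.Z gene. The hexamer CCGTCG also lay before 10 of the 40 genes (25%, against 3.41% of all genes), including 4 of 8 H4 genes. The hexamer ACGTCA lay before 11 (27.5%, against 8.72%), and 7 of those 11 were H2B genes, where only HTB4 lacked it. E2F motifs, searched as TTTCCCGC, TTTCGCGC, TTTGCCGC and TTTGGCGC, lay before 4 of the 40 (10%, against 1.57%). Of these 4, the H4 genes AT3G45930 and AT3G46320 have nearly identical windows with TTTGGCGC at the same position, so their matches are not separate cases. The nonamer CATCCAACG lay before none of the 40 and before 0.157% of all genes. In all, 26 of the 40 windows held at least 1 of these motifs and 14 held none. Among those 14, the window of AT4G40030 lies within the gene AT4G40040 except for the 42 bases between the genes. A match describes these letters only and is not evidence of a factor bound there. The windows of 5 genes are shown because they carry the main arrangements, 5′ to 3′ on the strand of the gene, with motif matches in capitals, from RefSeq's TAIR10.1 assembly. They are the H3.1 gene AT1G09200 (chr1:2972335-2972634, reverse strand), with 2 octamers, and the H4 gene AT5G59690 (chr5:24051174-24051473, forward strand), with 1 octamer and 2 CCGTCG hexamers on opposite strands. HIS4 (chr2:12330060-12330359, reverse strand) is the H4 gene with the highest ratio between the columns, and has 1 CCGTCG hexamer. The H2B gene HTB11 (chr3:16914132-16914431, reverse strand) has both hexamers. The H3.3 gene AT4G40040 (chr4:18558946-18559245, reverse strand) is the only replacement gene with an octamer, which overlaps a CCGTCG hexamer on the same strand.
AT1G09200 (H3.1): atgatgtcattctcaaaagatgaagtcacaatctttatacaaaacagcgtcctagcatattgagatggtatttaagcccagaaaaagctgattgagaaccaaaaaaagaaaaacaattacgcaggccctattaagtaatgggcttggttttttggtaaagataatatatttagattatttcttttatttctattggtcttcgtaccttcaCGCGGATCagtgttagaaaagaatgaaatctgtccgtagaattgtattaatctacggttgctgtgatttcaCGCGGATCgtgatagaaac
AT5G59690 (H4): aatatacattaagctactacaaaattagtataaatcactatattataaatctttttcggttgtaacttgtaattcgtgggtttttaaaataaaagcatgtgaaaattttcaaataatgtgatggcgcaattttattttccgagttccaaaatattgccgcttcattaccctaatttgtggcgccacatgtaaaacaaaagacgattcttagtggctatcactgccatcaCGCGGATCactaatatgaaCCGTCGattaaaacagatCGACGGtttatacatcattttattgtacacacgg
HIS4 (H4): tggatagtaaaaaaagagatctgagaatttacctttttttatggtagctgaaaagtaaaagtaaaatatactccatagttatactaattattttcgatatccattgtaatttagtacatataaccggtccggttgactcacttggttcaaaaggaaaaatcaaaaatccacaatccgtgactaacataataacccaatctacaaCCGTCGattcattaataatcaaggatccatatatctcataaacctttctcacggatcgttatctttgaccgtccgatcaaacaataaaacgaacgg
HTB11 (H2B): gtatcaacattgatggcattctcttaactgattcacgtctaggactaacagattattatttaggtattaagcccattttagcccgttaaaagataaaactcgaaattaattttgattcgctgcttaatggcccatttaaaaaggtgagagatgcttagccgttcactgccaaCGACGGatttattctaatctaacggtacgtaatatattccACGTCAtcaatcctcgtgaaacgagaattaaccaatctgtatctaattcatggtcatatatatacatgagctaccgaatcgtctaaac
AT4G40040 (H3.3): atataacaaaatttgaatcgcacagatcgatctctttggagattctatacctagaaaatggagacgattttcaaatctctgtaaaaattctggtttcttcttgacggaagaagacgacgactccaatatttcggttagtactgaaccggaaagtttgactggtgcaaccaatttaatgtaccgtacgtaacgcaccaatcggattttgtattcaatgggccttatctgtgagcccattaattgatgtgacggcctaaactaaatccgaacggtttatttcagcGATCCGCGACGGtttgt

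**Figure D1:**
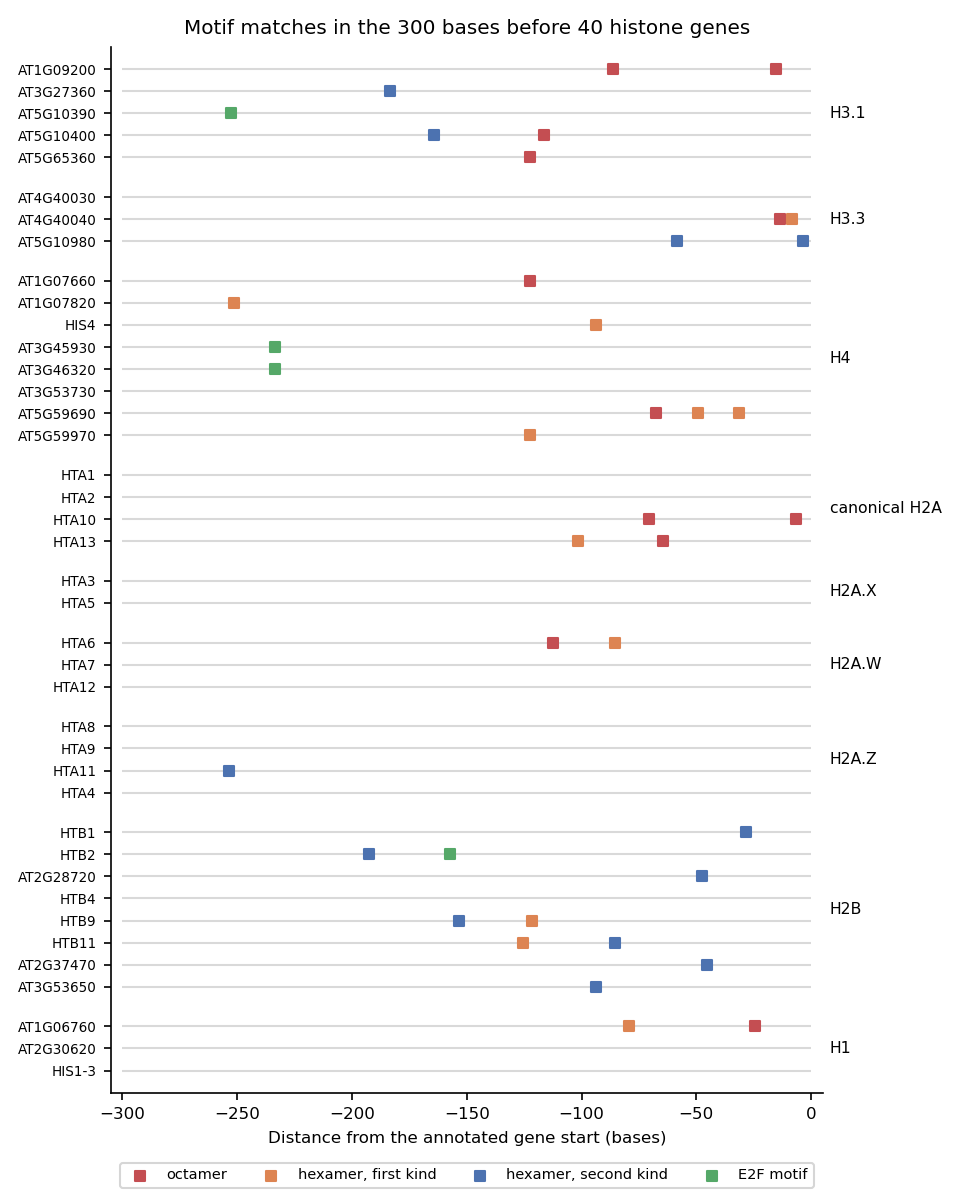
Motif matches in the 300 bases before each of the 40 histone genes, with distance from the annotated gene start on the horizontal axis in bases and 1 line per gene, grouped by family. Squares mark the centre of a match on either strand to the octamer, to the hexamers CCGTCG (first kind) and ACGTCA (second kind) or to an E2F motif. Blue squares of the second hexamer mark 7 of the 8 H2B lines, and 14 lines are empty.

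Gene structure followed the families. None of the 21 H3.1, H4 and H2B genes had an intron in its coding sequence, whereas every H3.3, H2A and H1 gene had between 1 and 3. All 5 H3.1 genes encode the same protein of 136 residues, the 3 H3.3 genes encode another of 136 residues with 97.1% identity to it, and all 8 H4 genes encode the same 103 residues. Canonical H2A proteins were between 92.4% and 95.4% identical to each other. Their identity was 37.7% to 38.6% to the H2A.Z protein of HTA4, which has 118 residues, and 53.7% to 57.5% to the other H2A.Z proteins. The DNA differed more, with coding identities of 80.3% to 89.5% among H3.1 genes and 78.8% to 98.1% among H4 genes. In 6 pairs the transcripts shared an identical run of at least 50 bases. The longest were 160 bases between the H4 genes AT3G45930 and AT3G46320, 137 between AT1G07660 and AT1G07820, and 95 between AT5G59690 and AT5G59970. The other pairs were HTA10 and HTA13 (87 bases), HTB9 and HTB11 (62) and the H3.1 genes AT3G27360 and AT5G10400 (59). The labels do not say how reads from such runs were assigned, which leaves the separate values of these 12 genes uncertain.

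The gene named by the line went against its label. BBX4 (AT2G24790, annotated as COL3) had 88.97 FPKM in wild-type and 1095.7 FPKM under the label bbx4-1, which is 12.3-fold higher. Directions below therefore refer to the column labelled bbx4-1 and not to a loss of BBX4 transcript. FPKM summed to 790456 and 792874 over the loci of the 2 columns, and single fragments on transfer RNA genes put the depth near 48.1 and 49.8 M fragments. Leaf genes marked the tissue, with the Rubisco small subunit gene RBCS1A at 17575 and 17123 FPKM, the antenna gene CAB1 at 11034 and 11237 and Rubisco activase RCA at 6098 and 5764. Among root genes IRT1 stood at 170.2 and 128.7 FPKM (log2 ratio −0.40), SHV2 at 2.07 and 2.04 and CASP1 at 27.9 and 30.7. The meristem genes were low, STM at 1.24 and 1.43, CLV3 at 0.1 and 0.03 and WUS listed at 0 and at 0.01. The pollen gene VGD1 was at 0.01 and 0.03, the seed storage gene CRA1 at 8.87 and 10.2 and CRC at 0.84 and 0.52. In whole seedlings fewer cells of a type and less RNA per cell cannot be told apart.

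All 40 histone genes were expressed above the minimum mean of 1 FPKM used for comparisons. In wild-type they ranged from 3.12 FPKM for the H2A.Z gene HTA4 to 203.7 for the H3.3 gene AT4G40040, a 65.3-fold span, and were covered by an estimated 114 to 14786 fragments each. The 3 H3.3 genes were among the most abundant, at 203.7, 187.7 and 144.0 FPKM, with the H2B gene HTB4 at 177.9 between them. Because FPKM is per length, sums over a family can be compared. The 8 H2B genes summed to 644 FPKM in wild-type, the 3 H3.3 genes to 535, the 8 H4 genes to 484 and the 5 H3.1 genes to 322. The H1 genes summed to 192 FPKM, canonical H2A to 189, H2A.W to 146, H2A.Z to 143 and H2A.X to 94.1. H3.3 thus supplied 62.4% of the H3 sum for wild-type and 63.5% under the label bbx4-1. The H2A shares that follow are in the same order. Within H2A, canonical genes supplied 33.0% and 33.1%, H2A.W 25.6% and 26.1%, H2A.Z 24.9% and 23.9%, and H2A.X 16.5% and 17.0%.

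**Figure D2:**
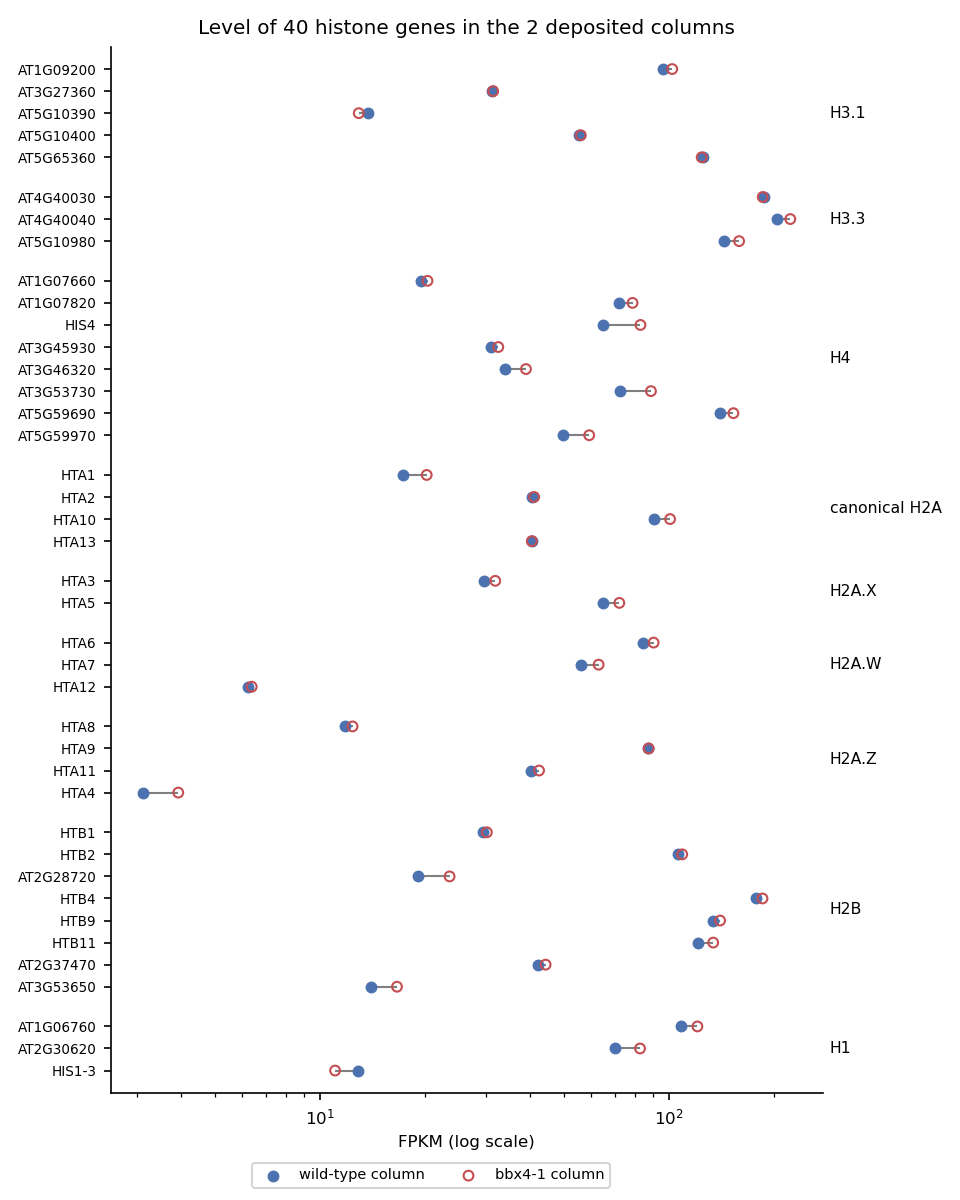
FPKM of each of the 40 histone genes on a logarithmic horizontal axis, with 1 line per gene grouped by family. Filled points are the wild-type column and open points the column labelled bbx4-1, each the authors' combined value of 3 replicates, and the 2 points of a gene lie close together throughout.

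**Figure D3:**
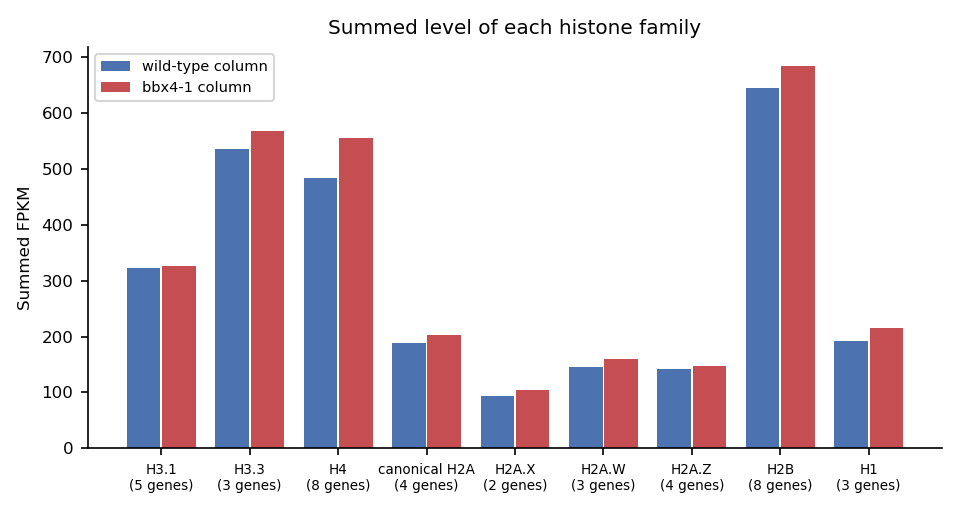
Summed FPKM of each histone family in both columns, on a linear axis from 0. H4 shows the widest gap between its bars, at 484 and 555 FPKM, and H3.1 a narrow one, at 322 and 327 FPKM.

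Differences between the columns were small for all 40 genes. They are given as log2(FPKM + 1) in the column labelled bbx4-1 minus wild-type, with the authors' combined values, so that no SD, replicate check or test exists, and intervals cover counting error only. No member differed 2-fold, a limit that 0.106% of the 18931 loci with a mean of at least 1 FPKM passed upwards and 0.0423% downwards. On this scale 3 of the 40 genes were at least 1.2-fold higher, against 5.14% of all loci, and 0 were at least 1.2-fold lower, against 4.1%. The 3 of 40 lie near that background. On the plain ratio of FPKM, which is the ratio printed with intervals, 4 genes were that much higher, HTA4 at 1.26 included, against 7.82% of all loci higher and 6.57% lower. Log2 ratios were above 0 for 36 of the 40 genes, where 59.1% of all loci were above 0, and the median of the 40 was 0.093 against 0.028. Loci of the members' range of exon length and mean FPKM had a median of 0.049 with 65.4% above 0. The ratio was higher than 1 beyond its 95% counting interval for 21 members and lower for 1, where 23.8% and 12.6% of all loci with an interval passed this margin. Within the members' range of length and level the shares were 28.8% and 10.8%. With a mean of at least 10 FPKM in that length range, they were 36.1% and 11.9%, with 68.8% of loci above 0.

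**Figure D4:**
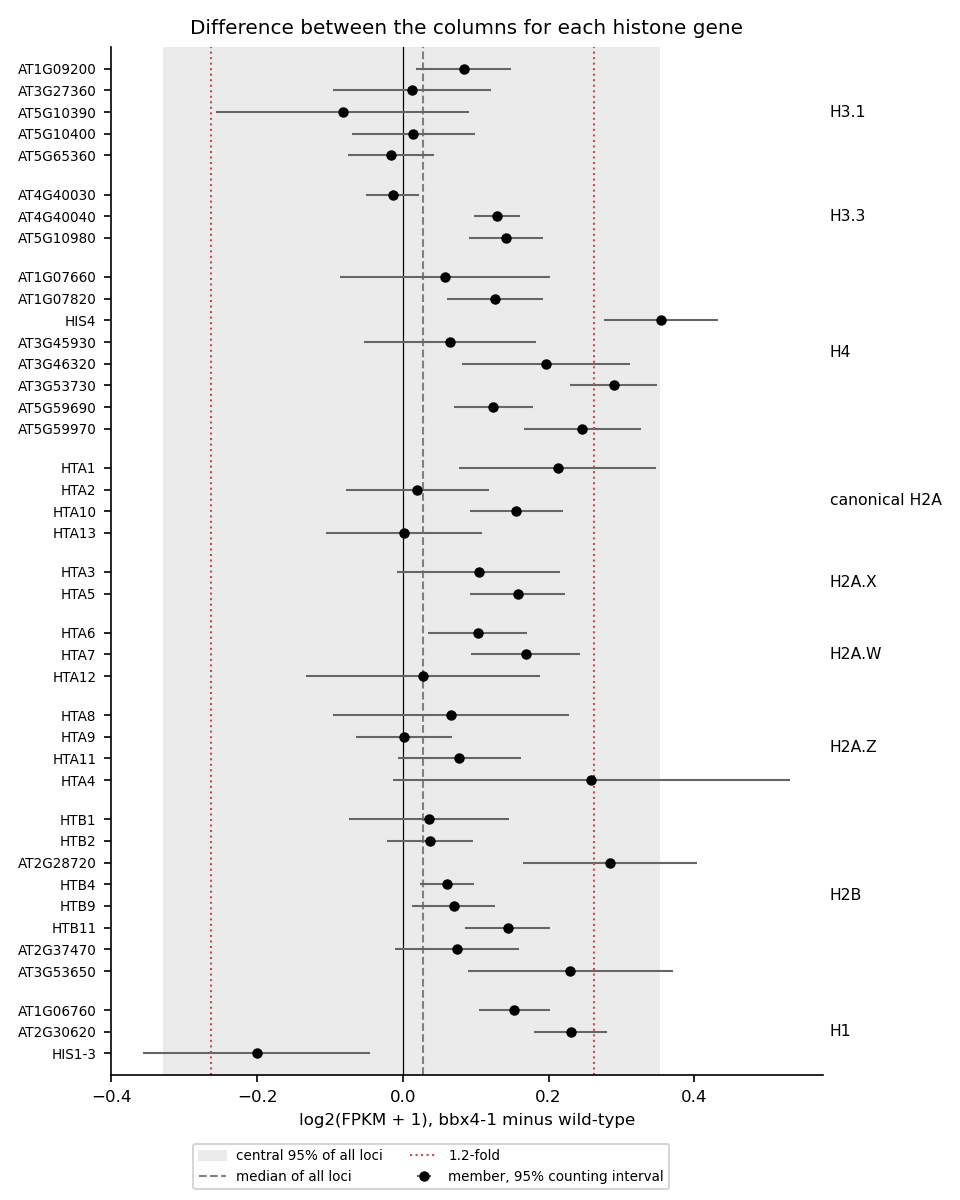
Log2 ratio of each histone gene between the columns, as log2(FPKM + 1) in bbx4-1 minus wild-type, with 95% counting intervals as bars. The grey band is the central 95% of 18931 loci, the dashed line their median of 0.028 and the dotted lines 1.2-fold; HIS4 at 0.35 lies at the edge of the band, and HIS1-3 at −0.20 is the lowest gene.

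Replication-dependent and replacement genes had similar median ratios. The 25 replication-dependent genes had a median log2 ratio of 0.074, with 23 above 0, and the 7 replacement genes a median of 0.078, with 6 above 0. The difference of the medians was −0.0033. Summed over genes, the replication-dependent class went from 1639 to 1768 FPKM, a ratio of 1.08 (95% counting interval 1.07 to 1.09). The replacement class went from 678 to 714 FPKM, a ratio of 1.05 (1.04 to 1.07), or 1.04 without its most abundant gene AT4G40040. On the log2 scale the sums of the 2 classes differed by 0.034 (counting interval 0.0088 to 0.060). H4 had the largest ratio of sums in the replication-dependent class, at 1.15. Canonical H2A had 1.07, H2B 1.06 and H3.1 1.014. H3.1 thus lay below the replacement ratio of 1.05, and canonical H2A and H2B above it. Without H4 the median log2 ratio of the replication-dependent genes was 0.0605. The class sums were not compared without H4, so the difference of 0.034 between the sums cannot be assigned to the class as a whole. Single genes ran from −0.082 to 0.35 among replication-dependent and from −0.014 to 0.26 among replacement genes. The 5 H2A.X and H2A.W genes had a median of 0.10.

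The 8 H4 genes gave the largest ratio of sums among the 9 families. All 8 had log2 ratios above 0, with a median of 0.16, and their sum went from 484 to 555 FPKM, a ratio of 1.15 (counting interval 1.12 to 1.17). Of loci in the members' length range with a mean of at least 10 FPKM, 68.8% lay above 0, with a median of 0.054. HIS4 went from 64.7 to 82.9 FPKM, a ratio of 1.28 (1.21 to 1.36) and the highest log2 ratio of the 40 at 0.35. AT3G53730 went from 72.5 to 88.9 FPKM (1.23, interval 1.17 to 1.28). AT5G59970 was at 49.7 and 59.1 FPKM (log2 ratio 0.25) and AT3G46320 at 33.9 and 39.0 (0.20). The most abundant H4 gene, AT5G59690, had 140.4 and 153.2 FPKM (0.12), and AT1G07820 had 72.03 and 78.7 (0.13). The smallest differences were those of AT3G45930, at 31.0 and 32.5 FPKM, and AT1G07660, at 19.5 and 20.4, both within counting error. The longest identical run shared with another of the 8 H4 genes was 37 bases for HIS4 and 32 for AT3G53730, and the effect of read assignment on their values was not tested.

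The H3.1 genes, which are deposited with H4 behind the replication fork, differed less. Their sum went from 322 to 327 FPKM, a ratio of 1.014 (counting interval 0.988 to 1.04). The ratio of the H4 sums exceeded that of the H3.1 sums by 0.18 on the log2 scale (counting interval 0.13 to 0.22), without a replicate check. These were the highest and the lowest ratio of sums among the 9 families, and the contrast was not planned. Its interval makes no allowance for that choice. AT5G65360, the most abundant, stood at 125.7 and 124.2 FPKM and AT1G09200 at 96.4 and 102.3. AT5G10400 was at 55.4 and 56.0 FPKM, AT3G27360 at 31.1 and 31.4, and AT5G10390 at 13.8 and 12.9. Only AT1G09200, at a log2 ratio of 0.084, differed by more than counting error. The ratios of AT5G65360 and AT5G10390, which encode the same protein as the other H3.1 genes, were below 1 but within counting error.

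Of the H3.3 genes, AT4G40040 went from 203.7 to 222.9 FPKM (log2 ratio 0.13) and AT5G10980 from 144.0 to 159.0 (0.14). AT4G40030 stood at 187.7 and 185.8 FPKM (−0.014). The reference annotation places AT4G40030 and AT4G40040 in tandem on the reverse strand of chromosome 4, with 42 bases between them. The H3.3 sum had a ratio of 1.06 (counting interval 1.04 to 1.08), above that of H3.1 by 0.065 on the log2 scale (0.022 to 0.11). The H2A.Z genes, the other replacement group, had a ratio of sums of 1.03 (0.992 to 1.06), and none of the 4 differed by more than counting error. HTA9, the most abundant, stood at 87.4 and 87.6 FPKM, HTA11 at 40.2 and 42.5 and HTA8 at 11.8 and 12.4. HTA4 was low in both columns, at 3.12 and 3.93 FPKM, and its log2 ratio of 0.26 rests on an estimated 114 and 149 fragments. H2A.Z and canonical H2A sums differed by −0.065 on the log2 scale, with a counting interval from −0.13 to 0.0034 that includes 0.

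Canonical H2A genes had a ratio of sums of 1.07 (counting interval 1.04 to 1.11). HTA10 went from 90.4 to 100.8 FPKM (log2 ratio 0.16) and HTA1, also known as RAT5 for its role in *Agrobacterium* transformation, from 17.3 to 20.2 (0.21). HTA2 stood at 40.6 and 41.1 FPKM and HTA13 at 40.5 in both columns. Among the heterochromatin histones H2A.W, HTA6 was at 84.2 and 90.5 FPKM, HTA7 at 55.9 and 62.9 and HTA12 at 6.24 and 6.38. For H2A.X, HTA5 was at 64.6 and 72.2 FPKM and HTA3 at 29.5 and 31.8. Their ratios of sums were 1.09 for H2A.W (1.05 to 1.13) and 1.105 for H2A.X (1.06 to 1.15).

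All 8 H2B genes had log2 ratios above 0, between 0.036 and 0.28, with a ratio of sums of 1.06 (counting interval 1.04 to 1.08). Their median of 0.072 lay near that of loci in the members' length range with a mean of at least 10 FPKM. Those loci had a median of 0.054, with 68.8% above 0. AT2G28720 went from 19.2 to 23.5 FPKM (ratio 1.23, 1.13 to 1.34), and with HIS4 and AT3G53730 made up the 3 genes past 1.2-fold on the log2(FPKM + 1) scale. AT3G53650 stood at 14.0 and 16.6 FPKM (log2 ratio 0.23) and HTB11 at 121.2 and 134.0 (0.14). The abundant genes HTB4 and HTB9 were at 177.9 and 185.6 FPKM and at 133.6 and 140.3. HTB2 was at 106.5 and 109.3 FPKM, AT2G37470 at 42.1 and 44.4 and HTB1 at 29.3 and 30.1. The 2 H2B genes with the highest ratios were also the 2 lowest in level.

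Some genes with high ratios lay within 22.1 kb of each other. AT2G28720 (chromosome 2, 12326808 to 12327808, forward strand) and HIS4 (12329345 to 12330059, reverse strand) point towards each other, with 1536 bases between them. AT3G53650 (chromosome 3, 19889297 to 19890251, forward) and AT3G53730 (19912385 to 19913515, reverse) lie 22.1 kb apart, with log2 ratios of 0.23 and 0.29. Not every close pair had like ratios. The tandem H3.3 genes had −0.014 and 0.13. The H3.1 genes AT5G10390 and AT5G10400, with 577 bases between them on chromosome 5, had −0.082 and 0.014, both within counting error. HTB4 and the H4 gene AT5G59970, 17.7 kb apart on chromosome 5, had 0.061 and 0.25. Further close pairs were HTB1 and AT1G07820 (0.036 and 0.13) and AT3G45930 and HTB9 (0.065 and 0.070). So were HTB9 and HTB11 (0.070 and 0.14) and HTA6 and HTB4 (0.10 and 0.061). A link between distance and ratio was not tested.

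Linker histone genes differed in direction. AT1G06760 went from 108.5 to 120.8 FPKM (log2 ratio 0.15) and AT2G30620 from 70.3 to 82.7 (0.23). HIS1-3, the linker variant known for induction by drought and abscisic acid, went from 12.9 to 11.1 FPKM. Its ratio of 0.86 (counting interval 0.764 to 0.968) was the only one of the 40 that was below 1 by more than counting error. The 3 genes together had a ratio of sums of 1.12 (1.09 to 1.15).

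Ratios overlapped between genes with and without each promoter motif. The 10 genes with an octamer had a median log2 ratio of 0.093, from −0.016 to 0.16, and the 30 without it 0.091, from −0.20 to 0.35. The 10 with CCGTCG had 0.13, from 0.0017 to 0.35, against 0.070, from −0.20 to 0.29, for the other 30. The 11 genes with ACGTCA had 0.074 against 0.10 for the other 29, and the 4 with an E2F motif 0.051 against 0.10 for the other 36. Of the CCGTCG genes 4 were H4, the family with the largest ratio of sums, and of the ACGTCA genes 7 were H2B. Motif and family were not separated. Median wild-type levels were 93.4 FPKM with the octamer and 41.3 without it, and 96.3 with CCGTCG and 40.4 without it. They were 42.1 FPKM with ACGTCA and 64.6 without it, and 32.4 with an E2F motif and 60.2 without it.

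Lists of genes that act with histones or with DNA replication had medians below 0, where the median of all loci was 0.028 and 59.1% lay above 0. Of all loci with an interval, 23.8% were higher and 12.6% lower beyond counting error. At exon lengths of 2001 to 3000 bases these shares were 22.0% and 14.3%, and at 1501 to 2000 bases 24.4% and 11.8%. The counts in the lists were not tested against these shares. Among 24 histone chaperones and chromatin remodellers, none was past 1.2-fold on either scale, 2 were higher and 5 lower beyond counting error, and the median log2 ratio was −0.013, with 11 above 0 and 13 below. The highest was SWC2, a subunit of the complex that inserts H2A.Z, at 7.60 and 8.54 FPKM (0.15), and the lowest DDM1, a remodeller that deposits H2A.W, at 6.06 and 5.06 (−0.22). DNA replication and S phase genes, of which 23 of 24 had a mean of at least 1 FPKM, had a median of −0.033, with 10 above 0, 13 below, 2 higher and 3 lower beyond counting error, and none past 1.2-fold on the log2(FPKM + 1) scale. CDC6, a licensing factor, was highest at 2.67 and 3.4 FPKM (0.26, plain ratio 1.27), and MCM6, a subunit of the replicative helicase, lowest at 5.59 and 4.62 (−0.23, plain ratio 0.827). The 13 genes of G2 and mitosis had a median of −0.047, with 4 above 0, 4 lower and 0 higher beyond counting error, and none past 1.2-fold on the log2(FPKM + 1) scale. They ran from CYCB2;1, a mitotic cyclin, at 1.59 and 1.16 FPKM (−0.26, plain ratio 0.73), to the cytokinesis syntaxin gene KNOLLE at 22.2 and 23.5 (0.077). Of 9 further histone genes outside the 40, 3 had a mean of at least 1 FPKM, with a median of −0.019. Among them AT3G09480 was highest, at 2.69 and 2.78 FPKM, and the centromeric H3 gene HTR12 lowest, at 3.82 and 3.74. The male-gamete H3 gene MGH3 (also a pollen marker here) was at 0.03 FPKM in wild-type and listed at 0 in the other column.

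Transcript length moved with the ratio over all loci. The median log2 ratio was 0.064 for loci with exon lengths of 501 to 1000 bases, 0.039 for 1001 to 1500, 0.031 for 1501 to 2000, 0.019 for 2001 to 3000 and 0.0099 above 3000. The histone genes are short, between 644 and 1666 bases with a median of 844.5. The chaperone, replication and G2 and mitosis lists had median lengths of 2005, 2302 and 1630 bases. The median log2 ratios of these lists were below 0, whereas those of the length bands were above 0. The part of length in the differences between these lists was not tested. The 8 H4 genes, with a median length of 733.5 bases, had a median log2 ratio of 0.16, and the 5 H3.1 genes, with 764, had 0.013. Overlapping annotation touched 9 of the 40 genes. The most abundant overlapping partners were AT3G45970, opposite HTB9, at 68.2 and 52.0 FPKM, AT3G20680, opposite HTA13, at 28.9 and 28.4, and AT3G27380, on the strand of AT3G27360, at 27.5 and 31.8. The labels do not say whether counting used strand. HIS4, AT3G53730 and AT2G28720 overlap no other locus.

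**Figure D5:**
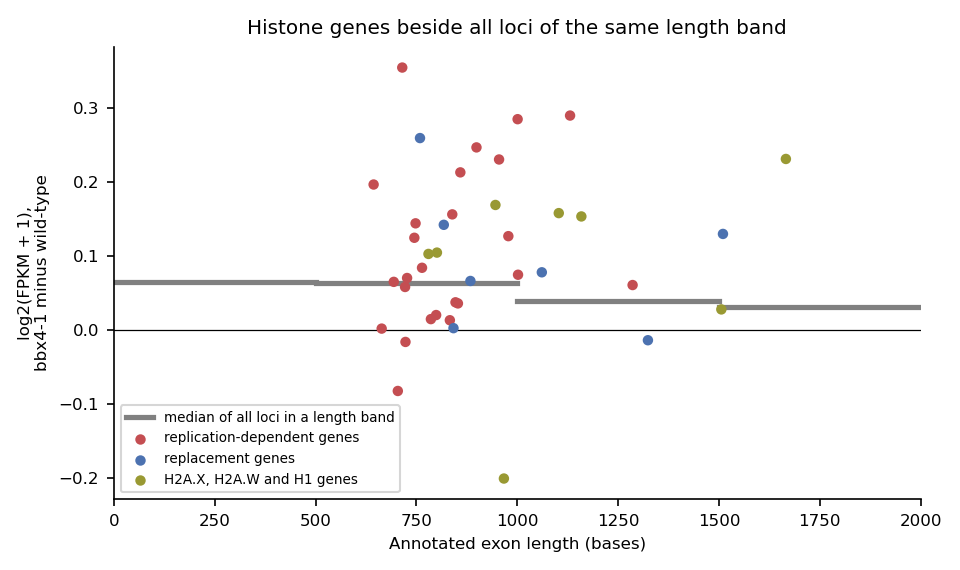
Log2 ratio between the columns, as log2(FPKM + 1) in bbx4-1 minus wild-type, against annotated exon length in bases for the 40 histone genes, coloured by class. Grey lines give the median of all loci in each length band, 0.064 for 501 to 1000 bases and 0.039 for 1001 to 1500; replication-dependent and replacement genes scatter on both sides of them.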

How the data were processed

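Per the labels' protocols, libraries were made from poly(A)-enriched seedling RNA. The authors deposited 1 table of FPKM per genotype, with the 3 replicates of each combined per the design text. Per the submitters' processing notes, HISAT2 2.1.0, edgeR 3.0.8 and the build TAIR10 were used; their roles, the gene lengths and the counting rules are not stated there. Depth was estimated from single fragments on 20 and 18 transfer RNA genes of at most 75 bases, and counting errors followed from FPKM, exon length and that depth; these take fragments as independent, and without molecular identifiers the intervals may be too narrow. Log2 ratios used a pseudocount of 1, which understates the change of low genes, and a minimum mean of 1 FPKM; ratios printed with intervals are plain FPKM ratios. Exon lengths, gene models, coding sequences and promoters came from RefSeq's TAIR10.1 annotation, in which 32827 loci had an exon length. All 40 members could be named; of other lists, those with the highest and lowest ratio, any past 1.2-fold, and every marker. Of 84 list entries, 73 had a symbol in the reference. Members, classes and lists were chosen with earlier results of these data known. Scripts (Python 3.11.15, pandas 2.3.3, Biopython 1.88) were tested on simulated data.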

Additional observations from a re-analysis of the deposited data

How the results depend on the processing

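No paired analysis was possible because each genotype has 1 combined column and no replicate columns. For the same reason no replicate could be left out. Rescaling by a trimmed mean of log ratios (computed without weights) multiplied the bbx4-1 column by 0.981, or −0.027 in log2 before the pseudocount. After it 1 member, HIS4, was at least 1.2-fold higher in place of 3, and the ratio of sums was 1.06 for replication-dependent and 1.03 for replacement genes. AT3G27360, AT5G10400, HTA2, HTA13 and HTA9 moved from just above 0 to between −0.0251 and −0.0068. The counts of 36, 23 and 6 genes above 0 thus hold only without rescaling. The share of all loci above 0 was not recomputed. Calls beyond counting error were not repeated either, and the log2 ratio of AT1G09200 fell from 0.0838 to 0.0566. Without AT4G40040, whose own ratio was 1.09, the replacement ratio was 1.04 before rescaling. Between 2 and 4 members were at least 1.2-fold higher under pseudocounts of 5 and 0.1, and 3 under a minimum mean of 5 FPKM or none. Under pseudocounts, filters and rescaling the median log2 ratio ranged from 0.0475 to 0.0759 for replication-dependent and from 0.0509 to 0.0794 for replacement genes. It ranged from −0.0364 to −0.0093 for chaperones, from −0.0548 to −0.0175 for DNA replication and from −0.0687 to −0.0253 for G2 and mitosis. The difference of class medians ranged from −0.029, with H2A.X and H2A.W among the replacement genes, to 0.0154, with them among the replication-dependent genes. Added after seeing the data were medians of 0.0605 without H4 and 0.0719 without HTA4, a difference of 0.012 without H2B and HTA4, and counts of 3 without members that overlap other loci and 4 without a pseudocount. The contrast of the H4 and H3.1 sums was not planned either. HTA4, at an estimated 114 fragments in wild-type, was the member with the least depth.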
